A study of Mus musculus with 12 samples.

Results

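Mitochondrial ribosomal protein genes were followed across mouse hematopoietic stem cells sorted by the surface receptor IL27RA and by age. They were taken as the genes of the deposited expression table whose symbol starts with Mrpl or Mrps followed by a digit, leaving out names that contain -ps, which mark pseudogenes. The rule found 76 genes of 20457, of which 49 encode proteins of the large subunit, 26 proteins of the small subunit, and 1, Mrps36, a protein that is now placed in the 2-oxoglutarate dehydrogenase complex. The rule itself reads names and no measured value. The remaining 3 symbols of the family carried -ps, and 1 of them, Mrpl23-ps1, held 520 reads over all libraries, so reads of Mrpl23 could be split with a near-identical copy.

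The cells were C57BL/6 bone marrow stem cells, with no other allele or treatment named, in 4 groups of 3 libraries: old IL27RA+ and old IL27RA- cells from mice of 28 months, and young IL27RA+ and young IL27RA- cells from mice of 2 months. Each library was made from 50 sorted cells by Smart-Seq2, an amplification of full-length cDNA without molecular identifiers. The labels do not tie libraries to animals, so replicate spread here, and every p-value built on it, may be purely technical. Old IL27RA- replicate 1 carries a conflicting source label (young) but an old title and an age of 28 months, and is treated as old.

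The mitochondrial ribosome, or mitoribosome, sits in the mitochondrial matrix and translates the 13 mRNAs of the mitochondrial genome, all of which encode subunits of the respiratory chain and ATP synthase. All of its proteins are encoded in the nucleus, made on cytosolic ribosomes and imported. Many descend from bacterial ribosomal proteins, and the others are additions specific to mitochondria. Hematopoietic stem cells are known for low mitochondrial activity and reliance on glycolysis while quiescent.

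All 76 genes were read in all 12 libraries. Per kilobase, 60 of 75 stood above the median of all genes, and 63 of 76 varied less between replicates than the median gene of their level. None passed the test in any comparison of age or of IL27RA sort, where only 0.0203% to 1.85% of all genes did.

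Libraries held between 11669083 and 24153167 reads in genes, of which 42034 to 82953 fell in the 76 genes. The stem cell markers Procr, Hlf, Mecom, Slamf1, Kit and Ly6a all had reads in all 4 groups. The Il27ra transcript did not separate the sorted fractions: it had 887 to 1498 normalized counts in IL27RA+ libraries and 711 to 1632 in IL27RA- libraries. Old IL27RA- replicate 1 stood apart by 312300 normalized counts of the immunoglobulin gene Igkc, against 19 to 248 in the other 11 libraries. Of the B, T and stromal markers, Ms4a1, Cd3e, Cd3d, Cd3g and Cdh5 were not analysed here. Fewer cells of a type and less RNA per cell cannot be told apart in such pooled cells.

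Promoter sequences were read for these genes from the RefSeq table of build GRCm38.p6, in windows from 250 bases before to 50 after the start of each gene. Of the 76 genes, 67 had a window, 73 windows in all. Searched on both strands, the letters CCGGAAG, the core bound by ETS factors such as GABP, a regulator of nuclear genes for mitochondrial proteins, were in 24 windows, 32.9% of 73, against 8.86% of all 32851 windows in the table. The letters AAGATGGCG, bound by YY1, were in 8 windows (11%, against 1.4% of all windows). GCATGCGC, the core bound by the nuclear respiratory factor NRF1, was in 8 windows (11%, against 2.71%). The E-box CACGTG, read by MYC and other factors, was in 7 windows (9.59%, against 7.15%). These 7 windows belonged to 5 of the 67 genes. By gene that was not a higher share than the 2187 of 27025 genes in the whole table. In the windows shown, no 2 different motifs overlapped. In all, 36 of 67 genes held at least 1 of the 4 motifs. A match describes the letters only.

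The 4 windows below are shown on the strand of the gene with the matches in capitals: Mrps18a for the ETS and YY1 letters together, Mrpl9 for NRF1, Mrpl37 for the E-box and YY1, and Mrpl12 for a gene with none of the 4 that recurs in the age comparison.
Mrps18a, chr17:46110754-46111053, + strand: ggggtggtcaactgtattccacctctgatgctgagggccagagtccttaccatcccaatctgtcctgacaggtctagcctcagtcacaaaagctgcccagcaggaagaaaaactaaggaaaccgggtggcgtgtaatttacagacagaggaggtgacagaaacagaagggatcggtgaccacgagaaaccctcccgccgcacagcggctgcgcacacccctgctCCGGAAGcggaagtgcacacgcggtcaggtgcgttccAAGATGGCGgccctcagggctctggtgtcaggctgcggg
Mrpl9, chr3:94443086-94443385, + strand: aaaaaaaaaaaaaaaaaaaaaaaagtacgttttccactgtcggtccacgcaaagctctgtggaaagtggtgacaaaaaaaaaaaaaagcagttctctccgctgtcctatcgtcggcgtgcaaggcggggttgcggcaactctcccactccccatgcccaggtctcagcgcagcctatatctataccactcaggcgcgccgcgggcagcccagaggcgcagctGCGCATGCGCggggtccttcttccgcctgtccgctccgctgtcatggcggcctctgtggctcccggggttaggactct
Mrpl37, chr4:107066817-107067116, - strand: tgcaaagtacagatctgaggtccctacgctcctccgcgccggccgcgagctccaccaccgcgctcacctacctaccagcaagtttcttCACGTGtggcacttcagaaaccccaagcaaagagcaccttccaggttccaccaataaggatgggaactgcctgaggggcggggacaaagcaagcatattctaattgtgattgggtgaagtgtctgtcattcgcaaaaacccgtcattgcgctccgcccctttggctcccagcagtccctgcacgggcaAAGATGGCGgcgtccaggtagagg
Mrpl12, chr11:120484387-120484686, + strand: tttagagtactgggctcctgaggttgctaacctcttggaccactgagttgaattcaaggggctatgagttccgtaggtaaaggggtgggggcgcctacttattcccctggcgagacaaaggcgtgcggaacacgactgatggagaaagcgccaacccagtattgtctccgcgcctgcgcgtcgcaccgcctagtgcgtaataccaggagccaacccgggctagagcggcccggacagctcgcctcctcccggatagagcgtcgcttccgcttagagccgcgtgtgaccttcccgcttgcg
The ETS match of Mrps18a began 26 bases before the start, and its YY1 match 12 bases after it. The NRF1 letters of Mrpl9 matched on both strands, in overlapping sites that began 28 and 26 bases before the start. In Mrpl37 the E-box began 162 bases before the start and the YY1 match 27 bases after it.

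Levels are given per length, as normalized counts (reads divided by the authors' size factor) per kilobase of annotated exon, for the 75 genes with a length; Mrpl33 had none. The median gene stood at 243 normalized counts per kilobase, against 96.02 over all 14058 genes tested with a length, and 60 of the 75 were above that all-gene median. The quartiles were 111 and 450, and the highest exceeded the lowest 114-fold. The 5 highest were all large-subunit proteins: Mrpl24, whose bacterial relative starts assembly of the large subunit, with 1698, Mrpl10, the base of the stalk, with 1550, Mrpl12, the stalk protein itself, with 1207, Mrpl36, a small zinc-binding protein, with 1113, and Mrpl2, of the core near the peptidyl transferase centre, with 1063. Together they made up 24.9% of the summed level per kilobase.

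The 5 lowest were Mrps22 with 14.9 normalized counts per kilobase, Mrps36 with 46.4, Mrps35 with 47.0, Mrpl13 with 49.97 and Mrpl45 with 53.2. Mrps22 and Mrps35 are small-subunit proteins specific to mitochondria, Mrpl45 sits at the exit of the nascent chain and anchors the ribosome to the inner membrane, and Mrpl13 is a bacterial-type protein of the large subunit. By class, median levels per kilobase were 284.9 for the 30 large-subunit genes with a bacterial homologue, 211 for the 19 specific to mitochondria, 374 for the 16 small-subunit genes with a bacterial homologue and 154 for the 10 specific to mitochondria. In both subunits the bacterial-type genes thus had the higher median, with wide overlap: single genes ran from 49.97 to 1698 and from 53.2 to 707 in the large subunit, and from 64.9 to 915 and from 14.9 to 508 in the small one.

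**Figure D1:**
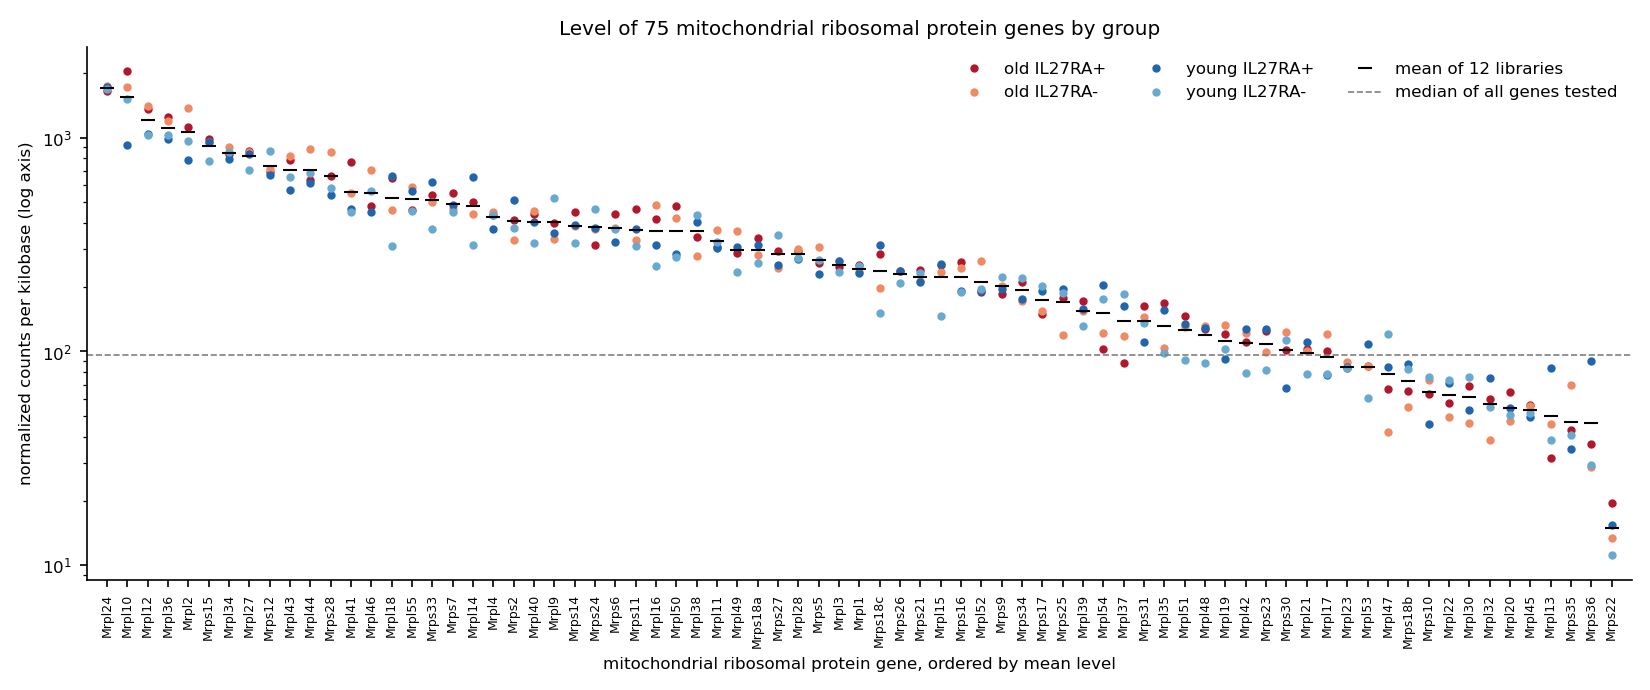
Mean level of each of 75 mitochondrial ribosomal protein genes in the 4 groups (coloured points, n = 3 libraries each) and over the 12 libraries (bars), in normalized counts per kilobase on a log axis, genes ordered by mean level. The groups lie close together along the whole order, from Mrpl24 at 1698 to Mrps22 at 14.9, and most genes lie above the dashed median of all genes tested.

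The order of levels was nearly the same in the 4 groups, with rank correlations across the 75 genes of 0.95 to 0.98 between pairs of groups. These correlations are across genes, which share libraries and lengths, and describe the order only. In every group Mrpl10, Mrpl12, Mrpl24 and Mrpl36 were among the top 5, and Mrps22 among the bottom 5. Mrpl24 had 4216, 3347 and 3541 normalized counts in old IL27RA+ libraries, 3722, 4066 and 3992 in old IL27RA-, 3747, 4984 and 2963 in young IL27RA+, and 3271, 4986 and 3106 in young IL27RA- libraries. All 4 groups overlapped, and neighbouring genes of the order often did not differ beyond their spread.

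Low genes set the limit of what could be compared. Mrps22, whose loss causes mitochondrial disease in humans, had 98.0, 108 and 29.3 normalized counts in old IL27RA+ libraries, 36.6, 74.7 and 49.0 in old IL27RA-, 26.3, 38.6 and 119 in young IL27RA+, and 102, 7.16 and 24.5 in young IL27RA-. Mrps36 had 96.1, 21.1 and 24.6 in old IL27RA+, 19.3, 56.0 and 35.2 in old IL27RA-, 64.9, 212 and 66.5 in young IL27RA+, and 102, 1.43 and 9.65 in young IL27RA- libraries. The value of 1.43 is below 3 reads, a floor that lay at 1.93 to 3.77 normalized counts depending on the library. Counting error at such levels is large, and amplified reads are not independent molecules. Of the 76 genes, 73 reached a linear value (normalized count plus 1) of 10 in all 12 libraries, and all 76 passed the filter of that value in at least 3 libraries.

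Spread between replicates was the SD of log2 values after subtracting group means. It had a median of 0.45 over the 76 genes, against 0.71 over all 14803 genes tested, and 63 of 76 genes lay below the all-gene median at their level. Among genes of 100 to 500 normalized counts the median spread was 0.51 for the 22 mitoribosomal genes and 0.87 for all genes, and from 500 to 1000 it was 0.41 for 25 of them and 0.53 for all genes. From 1000 upward the gap was narrower, at 0.34 for 24 mitoribosomal genes and 0.37 for all. No test was run on these medians. The steadiest genes were Mrpl4, a protein of the exit tunnel, with an SD of 0.16, Mrpl3, of the core near the catalytic centre, with 0.17, Mrpl12 with 0.22, Mrps17 with 0.25 and Mrpl2 with 0.26. The most variable were Mrps36 with 1.60, Mrpl20 with 1.33, Mrpl22 with 1.31, Mrps22 with 1.22 and Mrpl30 with 0.85, of which the first 4 had means under 100 normalized counts.

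**Figure D2:**
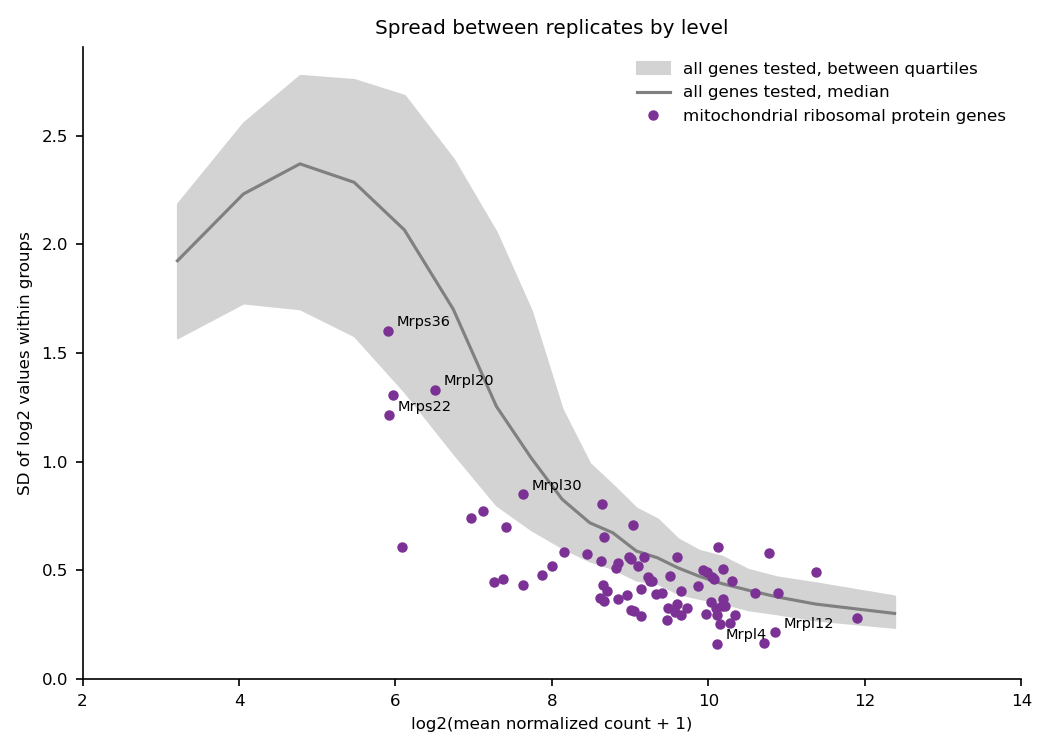
SD of log2 values within groups against mean level on a log2 scale, for the 76 mitochondrial ribosomal protein genes (points) and for all genes tested (line, median; band, between quartiles). The points sit mostly at or under the grey line, and the 4 most variable genes are at the low end.

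The summed reads of the 76 genes took 0.424%, 0.389% and 0.361% of all gene reads in old IL27RA+ libraries, 0.390%, 0.373% and 0.346% in old IL27RA-, 0.367%, 0.398% and 0.360% in young IL27RA+, and 0.389%, 0.335% and 0.343% in young IL27RA- libraries. The groups overlapped throughout, and the lowest shares were those of young IL27RA- replicates 2 and 3. The 13 mitochondrially encoded mRNAs, which the mitoribosome translates, took 3.49%, 4.01% and 3.12% of reads in old IL27RA+ libraries, 4.99%, 4.32% and 3.29% in old IL27RA-, 3.50%, 3.63% and 3.20% in young IL27RA+, and 2.90%, 3.03% and 2.94% in young IL27RA- libraries. All 3 young IL27RA- libraries lay below the other 9, a separation that was seen in the values and not tested. The 91 genes of the cytosolic ribosome took 2.79% to 4.80% of reads. Young IL27RA- replicate 2 had the lowest share of cytosolic ribosomal protein reads as well as of mitoribosomal reads, and old IL27RA- replicate 1 the highest cytosolic and mitochondrially encoded shares.

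Each gene was also set against its own mean over the 12 libraries. The median deviation of the 76 genes (log2) was 0.26, 0.14 and -0.07 in old IL27RA+ libraries, 0.20, 0.11 and -0.06 in old IL27RA-, 0.01, 0.12 and -0.02 in young IL27RA+, and 0.12, -0.24 and -0.28 in young IL27RA-. In old IL27RA+ replicate 1, 62 of the 76 genes were above their own mean, and in young IL27RA- replicate 3, 53 of 76 were below it. The 3 replicates of young IL27RA- thus spanned 0.40 in this median, and those of the other groups 0.14 to 0.33. The median over all genes tested lay between -0.07 and 0.10 in every library, and was lowest in young IL27RA- replicate 2. That library also had the fewest genes at a linear value of 10 or more, 12352, against 12676 to 13736 in the others. What part depth, amplification or such libraries had in the deviations was not tested.

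**Figure D3:**
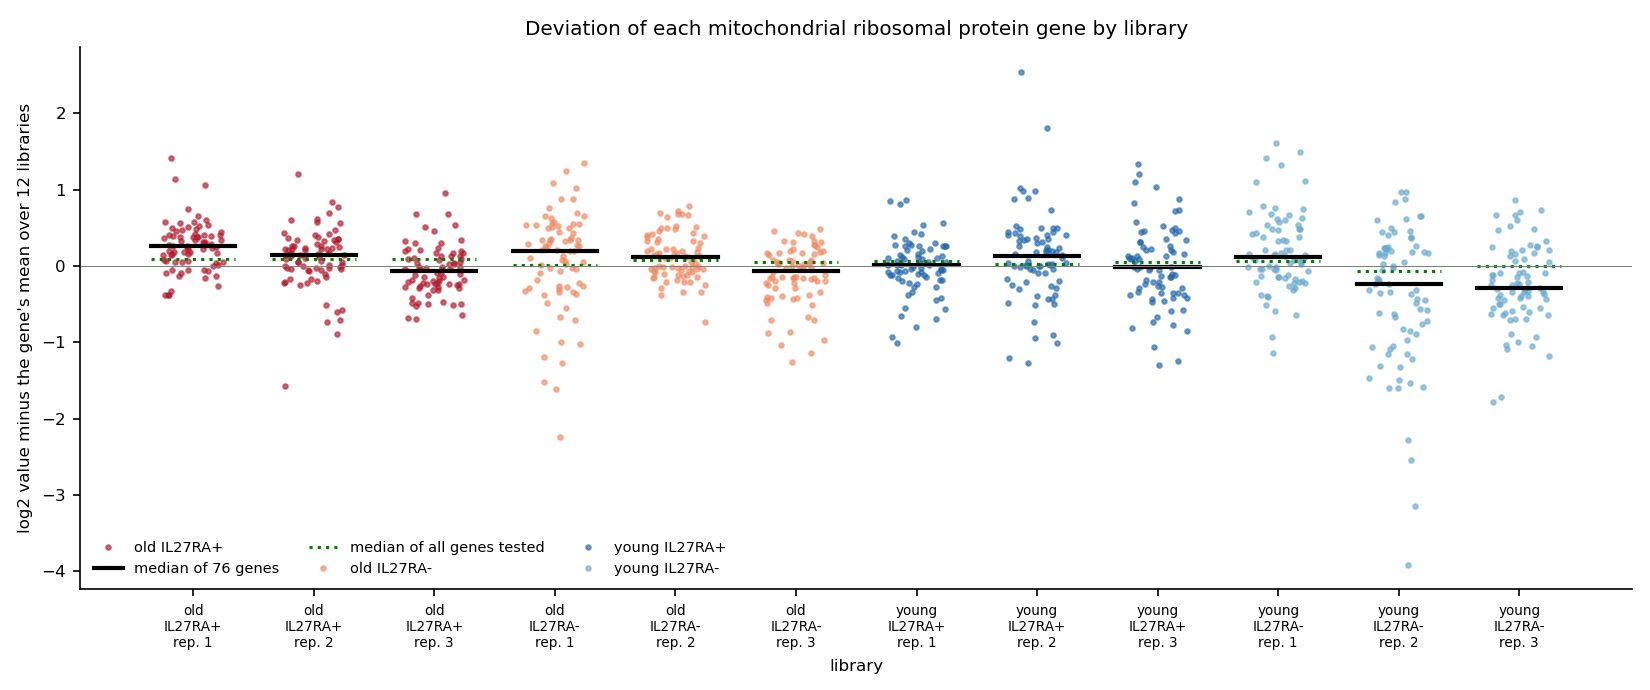
Deviation of each of 76 genes (points) from its own mean log2 value, by library; solid bars are the medians of the 76 genes and dotted bars those of all genes tested. The solid bars run from 0.26 in old IL27RA+ replicate 1 down to -0.28 in young IL27RA- replicate 3 and vary within groups.

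The first comparison asked whether old stem cells differed from young ones, averaged over the IL27RA+ and IL27RA- fractions. None of the 76 genes passed, at an adjusted p under 0.05 in limma with Benjamini-Hochberg adjustment over 14803 genes, where 274 genes, 1.85%, were called in all. A voom fit on recovered reads also called 0 of 76, here and in the other 6 comparisons. Before adjustment, 8 of 76 had a p under 0.05 (10.5%, against 15.1% of all genes). Old minus young differences were positive for 56 of 76, with a median log2 difference of 0.17, against 0.06 and 54.1% positive over all genes. The median became 0.10 when young IL27RA- replicate 2 was left out, and 0.26 when young IL27RA- replicate 1 was. The 95% interval of the difference lay wholly within 1 log2 unit of 0 for 46 of the 76 genes (60.5%, against 34.5% of all genes), so for those a change of 1 log2 unit with age lies outside the interval.

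Stalk proteins recruit the translation factors to the ribosome, and Mrpl10 and Mrpl12 form that stalk. Mrpl10 had 3706, 2830 and 3921 normalized counts in old IL27RA+ libraries, 3590, 2849 and 2383 in old IL27RA-, 2374, 1310 and 1030 in young IL27RA+, and 2577, 1486 and 3714 in young IL27RA-. Its values did not overlap with age in the IL27RA+ fraction and overlapped in the IL27RA- fraction. It had the smallest p of the family with age, a log2 difference of 0.74 ± 0.25 (SE) and an adjusted p of 0.161 in limma, which became 0.0666 without young IL27RA+ replicate 1, the smallest reached under any setting tried. The log2 difference of Mrpl10 was 0.49 when young IL27RA- replicate 2 and old IL27RA- replicate 1 were left out together.

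Mrpl12 had 2280, 2125 and 1849 normalized counts in old IL27RA+ libraries and 2609, 2032 and 1841 in old IL27RA-, against 1832, 1695 and 1220 in young IL27RA+ and 1625, 1537 and 1543 in young IL27RA-. All old libraries were above all young ones of the same fraction, as for 2.08% of all genes in that direction, and it was the sole one of the 76 to do so in both fractions. The difference was 0.43 ± 0.17 on the log2 scale (95% interval 0.07 to 0.79, limma adjusted p = 0.241). Of the other stalk-base proteins, Mrpl11 differed by 0.16 ± 0.26 and Mrpl53, a neighbour of the stalk specific to mitochondria, by 0.16 ± 0.63.

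Mrpl2 had 1483, 1218 and 1239 normalized counts in old IL27RA+ libraries and 1625, 1683 and 1513 in old IL27RA-, against 1056, 846 and 867 in young IL27RA+ and 924, 1571 and 901 in young IL27RA-. Only young IL27RA- replicate 2 reached the old levels. The difference was 0.53 ± 0.19 (limma adjusted p = 0.204). Mrpl16, which lines the tRNA sites of the large subunit, differed by 0.74 ± 0.27 (adjusted p = 0.210), with 1162 to 1998 normalized counts in the 6 old libraries and 450.0 to 1367 in the 6 young ones. The Mrpl16 difference was 0.49 without young IL27RA+ replicate 2.

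In the other direction, Mrpl37, a large-subunit protein specific to mitochondria, had 442, 379 and 361 normalized counts in old IL27RA+ libraries and 288, 636 and 652 in old IL27RA-, against 595, 816 and 778 in young IL27RA+ and 525, 912 and 1054 in young IL27RA-. The ages did not overlap in IL27RA+ cells and overlapped in IL27RA- cells, and the log2 difference was -0.79 ± 0.29 (limma adjusted p = 0.206). Mrpl47, a protein near the exit of the tunnel, differed by -0.88 ± 0.38 (adjusted p = 0.293), and Mrpl33 by -0.51 ± 0.29 (adjusted p = 0.432). For some genes a narrow interval held 0, though that of Mrpl12, among the steadiest, lay above 0. Mrpl24 differed by 0.02, with a 95% interval of -0.34 to 0.38, and Mrpl3 by 0.05, with an interval of -0.30 to 0.39.

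**Figure D4:**
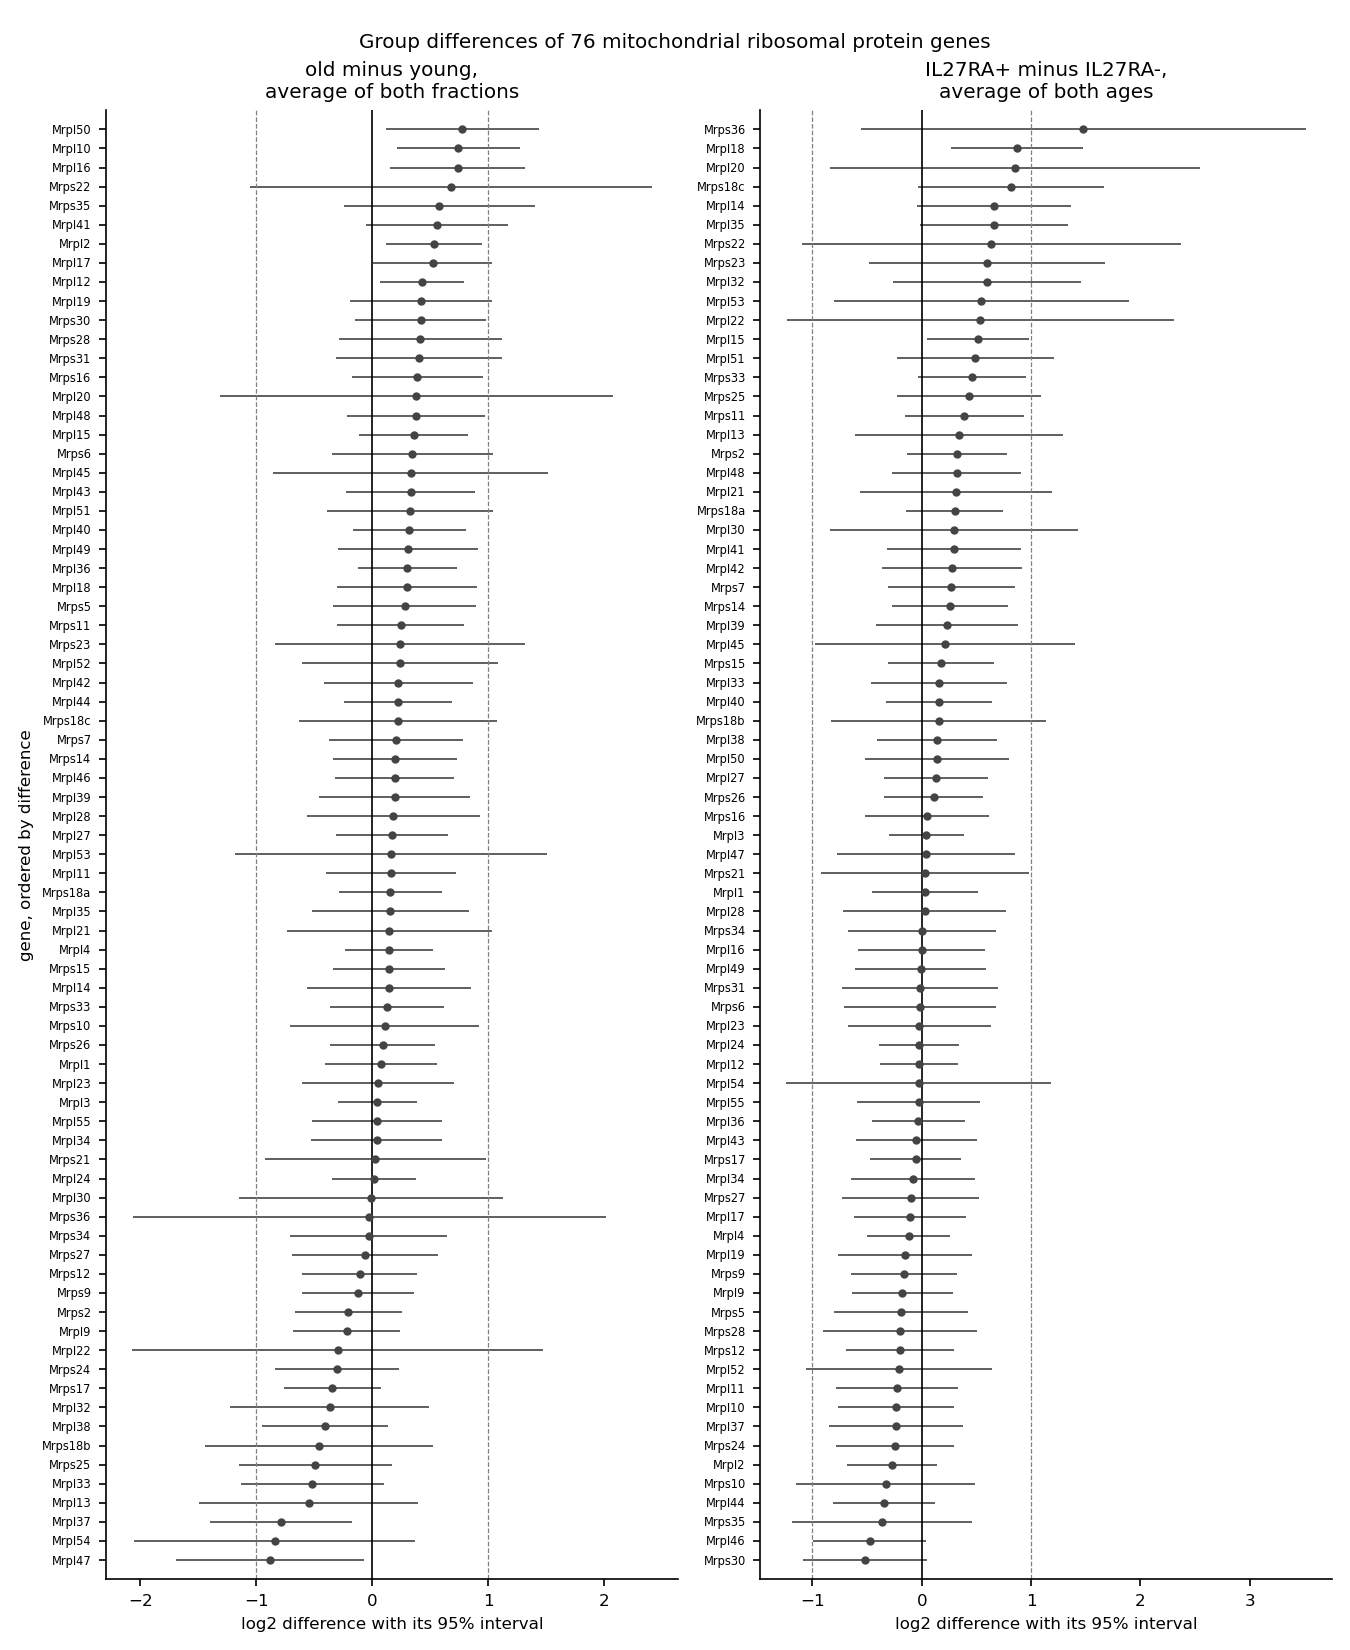
Log2 differences with 95% intervals of 76 genes, each column ordered by size: old minus young averaged over both fractions (left) and IL27RA+ minus IL27RA- averaged over both ages (right). Points right of 0 outnumber those left of it in both columns (56 and 42 of 76), and dashed lines mark 1 log2 unit.

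By subunit, the age difference was positive for 23 of 30 bacterial-type and 16 of 19 mitochondria-specific genes of the large subunit, with medians of 0.15 and 0.24. In the small subunit it was positive for 11 of 16 bacterial-type and 6 of 10 mitochondria-specific genes, with medians of 0.17 and 0.11. No class held a called gene. Mrps5, whose knockdown extends lifespan in the worm Caenorhabditis elegans, differed by 0.28 ± 0.29 (adjusted p = 0.719), and Mrps12, of the decoding centre, by -0.11 ± 0.23 (adjusted p = 0.880). Mrps5 had 749 to 2694 normalized counts in the 3 young IL27RA- libraries alone, a range that held all the other 9 libraries.

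The 3 Mrps18 proteins are paralogues, of which Mrps18b and Mrps18c are built into the small subunit and Mrps18a into the large one. Mrps18a averaged 1256 ± 136 normalized counts in old IL27RA+, 1043 ± 82.1 in old IL27RA-, 1155 ± 84.0 in young IL27RA+ and 957 ± 393 in young IL27RA- libraries (SD, n = 3). Mrps18b averaged 136 ± 13.7 in old IL27RA+, 115 ± 33.6 in old IL27RA-, 182 ± 78.9 in young IL27RA+ and 172 ± 52.5 in young IL27RA- libraries. Mrps18c averaged 309 ± 51.7 in old IL27RA+, 213 ± 24.4 in old IL27RA-, 339 ± 131 in young IL27RA+ and 163 ± 76.6 in young IL27RA- libraries. All 3 overlapped between ages in both fractions. Their age differences were 0.16 ± 0.21, -0.46 ± 0.46 and 0.22 ± 0.40 on the log2 scale for Mrps18a, Mrps18b and Mrps18c, each smaller than or close to its error.

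Within the IL27RA- fraction, old minus young, none of the 76 genes was called, where 99 of 14803 genes (0.669%) were. The median difference was 0.23, with 55 of 76 positive, against 0.04 over all genes. Young IL27RA- replicate 2 carried part of it: the median was 0.10 when that library was left out, and 0.09 when old IL27RA- replicate 1 was left out as well. Before adjustment, 3 of 76 genes had a p under 0.05, against 12.5% of all genes. Groups did not overlap for 4 genes with the old cells higher (Mrpl16, Mrpl12, Mrpl42 and Mrpl49, beside 7.8% of all genes) and 3 with the old cells lower (Mrpl47, Mrpl9 and Mrpl33, beside 6.71%). Mrpl47 had 134, 298 and 127 normalized counts in old IL27RA- libraries, against 512, 598 and 487 in young IL27RA- libraries. All 3 old values were below all young ones, by -1.62 ± 0.54 on the log2 scale (limma adjusted p = 0.218). Mrpl16 stood at 0.93 ± 0.39 (adjusted p = 0.342), Mrpl15, a core protein of the large subunit, at 0.72 ± 0.31 (0.357), Mrpl9, which holds the base of the L1 stalk, at -0.64 ± 0.31 (0.410), and Mrps25 at -0.84 ± 0.44 (0.455). The difference of Mrps25 was -0.35 without old IL27RA- replicate 1 and -1.38 without old IL27RA- replicate 3, and that of Mrpl15 was 0.42 without young IL27RA- replicate 2.

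Within the IL27RA+ fraction, old minus young, the count was again 0 of 76, where 63 genes (0.426%) were called in all. The median difference was 0.10, with 45 of 76 positive, against 0.05 over all genes. Without old IL27RA+ replicate 1 it was 0.03, and before adjustment 2 of 76 genes had a p under 0.05, against 8.88% of all genes. Groups did not overlap for 7 genes with the old cells higher (beside 9.09% of all genes) and 3 with the old cells lower (Mrpl37, Mrpl13 and Mrps17, beside 7.78%). Mrpl10 had the smallest p, at 1.23 ± 0.35 (limma adjusted p = 0.225). Mrpl13 had 370, 178 and 204 normalized counts in old IL27RA+ libraries, against 434, 1167 and 398 in young IL27RA+ libraries. The old values were all lower, by -1.30 ± 0.63 (adjusted p = 0.589), with young IL27RA+ replicate 2 far above the others. Mrpl37 stood at -0.88 ± 0.41 (0.555), Mrpl50 at 0.81 ± 0.44 (0.643), Mrpl2 at 0.51 ± 0.27 (0.643) and Mrpl54 at -1.08 ± 0.80 (0.782). Without young IL27RA+ replicate 2 the differences of Mrpl13 and Mrpl50 were -0.80 and 0.48, and without old IL27RA+ replicate 2 that of Mrpl54 was -0.57.

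The next comparison set IL27RA+ against IL27RA- cells, averaged over both ages. None of 76 genes passed, where 28 of 14803 genes (0.189%) were called. The median difference was 0.04 on the log2 scale with 42 of 76 positive, against 0.05 over all genes, and 2 genes had an unadjusted p under 0.05 (2.63%, against 7.98% of all genes). The 95% interval lay within 1 log2 unit of 0 for 53 of the 76 genes (69.7%, against 38.5% of all genes). No gene of the 76 was separate in the same direction at both ages, beside 0.601% of all genes with IL27RA+ higher and 0.378% with it lower.

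Mrpl18 had the smallest p of this comparison. It is a relative of the bacterial protein that carries 5S rRNA into the central protuberance. Its normalized counts were 942, 857 and 921 in old IL27RA+ libraries against 423, 899 and 604 in old IL27RA- libraries, and 807, 1118 and 835 in young IL27RA+ libraries against 654, 238 and 415 in young IL27RA- libraries. The IL27RA+ libraries ran from 807 to 1118, and 1 IL27RA- library, old replicate 2, lay among them. The difference was 0.87 ± 0.28 on the log2 scale (95% interval 0.27 to 1.48, limma adjusted p = 0.377). Mrpl15 stood at 0.51 ± 0.22 (0.573), Mrpl35 at 0.66 ± 0.32 (0.650), Mrps30, which despite its name is a large-subunit protein, at -0.52 ± 0.26 (0.668), Mrpl46 at -0.48 ± 0.24 (0.667) and Mrpl44, a relative of RNase III, at -0.34 ± 0.22 (0.743). Mrpl12 differed by -0.02, with a 95% interval of -0.38 to 0.33.

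Among young cells, IL27RA+ minus IL27RA-, 0 of 76 genes were called, beside 3 of 14803 (0.0203%), among them Vcam1 and Vwf. The median was 0.08 with 44 of 76 positive, and 0.02 without young IL27RA- replicate 2. Before adjustment, 4 of 76 genes had a p under 0.05, against 8.23% of all genes. Groups did not overlap for 4 genes with IL27RA+ higher (Mrpl18, Mrpl15, Mrps33 and Mrpl42, beside 5.05% of all genes) and 1 with IL27RA+ lower (Mrps24, beside 4.73%). Mrpl18 differed by 1.18 ± 0.40 (limma adjusted p = 0.448), Mrpl15 by 0.88 ± 0.31 (0.462) and Mrpl14, the platform of the assembly factor Malsu1, by 1.16 ± 0.47 (0.544). On the lower side were Mrps30 with -0.77 ± 0.37 (0.620), Mrpl10 with -0.72 ± 0.35 (0.622) and Mrpl9 with -0.60 ± 0.31 (0.628). The difference of the low gene Mrps36 was 2.83 ± 1.35, with a 95% interval of -0.05 to 5.70, and of its young IL27RA- libraries, given above, 1 lay above 2 of the young IL27RA+ ones and the other 2 below all of them. Without young IL27RA- replicate 2 the differences of Mrpl14 and Mrpl15 were 0.75 and 0.57, without young IL27RA+ replicate 2 that of Mrps30 was -0.46, and without young IL27RA- replicate 3 that of Mrpl10 was -0.41.

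Among old cells, again 0 of 76 genes were called, beside 3 of 14803 (0.0203%), among them Ncaph and Uhrf1. No gene of the family reached an unadjusted p under 0.05, against 5.38% of all genes. The median was 0.07 with 45 of 76 positive, and it was -0.03 without old IL27RA+ replicate 1 and -0.04 without old IL27RA- replicate 3. Groups did not overlap for 6 genes with IL27RA+ higher (beside 7.23% of all genes) and 3 with IL27RA+ lower (Mrpl46, Mrpl2 and Mrps30, beside 5.38%). Mrpl46 had 723, 458 and 848 normalized counts in old IL27RA+ libraries, against 1216, 882 and 894 in old IL27RA- libraries, a difference of -0.59 ± 0.34. Mrps25 stood at 0.78 ± 0.44, Mrpl47 at 0.78 ± 0.54, Mrpl35 at 0.65 ± 0.45, Mrps35 at -0.63 ± 0.54 and Mrpl44 at -0.51 ± 0.31, and limma gave each of these 6 genes an adjusted p of 1. Single libraries weighed heavily here. The difference of Mrps25 was 0.29 without old IL27RA- replicate 1 and 1.32 without old IL27RA- replicate 3, that of Mrps35 was -0.26 without old IL27RA- replicate 1, that of Mrpl47 1.18 and that of Mrpl46 -0.33 without replicate 2 of old IL27RA- and of old IL27RA+ cells, and without old IL27RA+ replicate 3 Mrpl35 stood at 0.37 and Mrpl44 at -0.31.

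**Figure D5:**
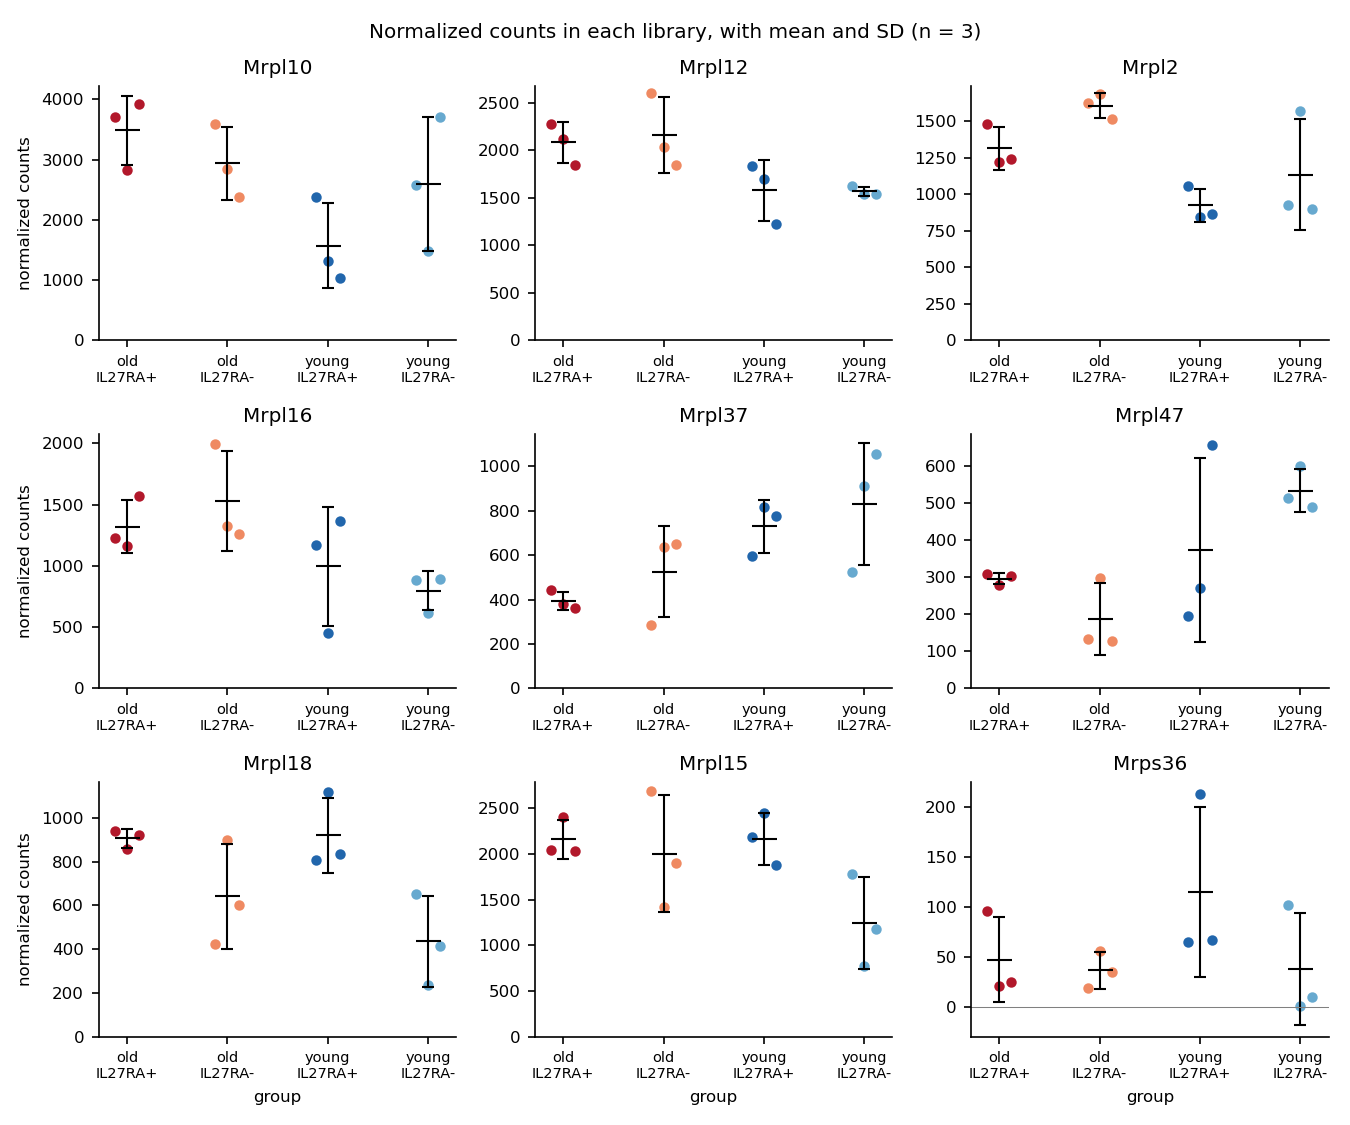
Normalized counts of 9 genes in each library (points), with group means and SD (n = 3), groups from left to right old IL27RA+, old IL27RA-, young IL27RA+ and young IL27RA-. Mrpl12 and Mrpl2 lie higher in the old groups with 1 young library of Mrpl2 at 1571, and Mrps36 shows 1 library near 0 and 1 at 212.

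Whether the age difference itself depended on the sort was tested as an interaction, the old minus young difference in IL27RA+ cells minus that in IL27RA- cells. None of 76 genes passed in limma, as none of 14803 did (0.0%), and none had an unadjusted p under 0.05, against 5.19% of all genes. The median was -0.06, with 31 of 76 positive, and its sign was not stable: it was 0.02 without old IL27RA+ replicate 3 and 0.05 without young IL27RA- replicate 2 and old IL27RA- replicate 1 together. Intervals were wide here, lying within 1 log2 unit of 0 for 9 of 76 genes (11.8%, against 6.0% of all genes). A difference of that size between fractions was thus not detectable for most. The smallest p values belonged to Mrpl10 with 0.97 ± 0.50, Mrpl47 with 1.48 ± 0.76 and Mrpl9 with 0.84 ± 0.43 on the positive side, and Mrpl13 with -1.50 ± 0.89, Mrpl15 with -0.72 ± 0.44 and Mrpl42 with -0.91 ± 0.60 on the negative side. All 6 had an adjusted p of 0.942.

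The promoter letters were set beside these differences as a description. The 24 genes with the ETS letters had a median age difference of 0.16, with 19 positive, and the 43 genes without them 0.19, with 32 positive. The 8 genes with the NRF1 letters had a median age difference of -0.26, with 3 positive, and the 59 without them 0.18, with 48 positive. For IL27RA+ minus IL27RA- the ETS medians were 0.16 with the letters, 18 of 24 positive, and -0.0012 without them, 21 of 43 positive. Median levels were 224 normalized counts per kilobase for the 23 genes with the ETS letters and a length, and 327 for the 43 without the letters. With and without the letters, median levels were 94.2 and 285 for NRF1, 292 and 248 for YY1, and 238 and 267 for the E-box. Median age differences were 0.155 and 0.182 for YY1, and 0.304 and 0.161 for the E-box. Sort medians with and without were 0.157 and 0.043 for NRF1, 0.125 and 0.046 for YY1, and -0.030 and 0.078 for the E-box. None of these splits was tested.

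The rest of mitochondrial translation gave the same count. Of 6 mitoribosome proteins under other names (Dap3, Chchd1, Aurkaip1, Ptcd3, Gadd45gip1 and Ict1), 25 assembly and rRNA modification genes, 12 translation factors, 17 mitochondrial aminoacyl-tRNA synthetases and 14 genes of mitochondrial transcription and mRNA stability, none was called in any of the 7 comparisons. Few genes of any kind were called, 0.0% to 1.85% of all 14803 depending on the comparison. In the age average their medians were 0.08, -0.03, -0.19, -0.13 and 0.04, against 0.06 over all genes. Positive differences were found for 3 of 6, 12 of 25, 3 of 12, 6 of 17 and 7 of 14.

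The smallest p of these lists with age belonged to Mtg1, a GTPase that acts late in assembly of the large subunit. It averaged 1181 ± 403 normalized counts in old IL27RA+ and 1252 ± 85.2 in old IL27RA- libraries, against 548 ± 327 in young IL27RA+ and 736 ± 87.2 in young IL27RA- libraries (SD, n = 3). The difference was 0.98 ± 0.28 (limma adjusted p = 0.0929). Wbscr16 differed by 1.01 ± 0.37 (0.202), Wars2, the mitochondrial tryptophanyl-tRNA synthetase, by 1.56 ± 0.60 (0.225), Cars2, the cysteinyl one, by -0.73 ± 0.29 (0.252), and Mrrf, the ribosome recycling factor, by 0.45 ± 0.26 (0.432). Gfm1, an elongation factor, stood at -0.35 ± 0.28, Tfam, which packages mitochondrial DNA, at 0.25 ± 0.16, Gadd45gip1 at 0.44 ± 0.28 and Dap3, a GTP-binding protein of the small subunit, at 0.18 ± 0.19. The gene 1810035L17Rik of the transcription and stability list stood at 0.43 ± 0.18.

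By sort, averaged over both ages, the medians of the same 5 lists were 0.11, 0.06, 0.19, -0.02 and 0.01, against 0.05 over all genes. Their smallest p values belonged to Ptcd3, a small-subunit protein (0.66 ± 0.35), Ngrn, which acts on the large rRNA (-0.41 ± 0.19), Mtrf1, of the release factor family (1.34 ± 0.70), Ears2, the glutamyl-tRNA synthetase (-0.48 ± 0.43), and Polg2, the accessory subunit of the mitochondrial DNA polymerase (0.83 ± 0.43). Next in each list were Gadd45gip1 (0.40 ± 0.28), Trub2 (0.87 ± 0.52), Mtfmt (0.72 ± 0.39), Iars2 (0.26 ± 0.26) and Polrmt, the mitochondrial RNA polymerase (0.69 ± 0.37). Adjusted p values of these 10 genes were 0.635 to 0.876.

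Other genes did move between the same libraries. Of 20 cell cycle genes, all 20 stood higher in old IL27RA+ than in old IL27RA- cells, with a median log2 difference of 4.27, and Ncaph, a condensin subunit, and Uhrf1, which maintains DNA methylation at replication, were called (limma adjusted p = 0.00216 and 0.0295). Summed normalized counts of the 20 were 18790 to 27450 in old IL27RA+ and 4976 to 8160 in old IL27RA- libraries. In old IL27RA- cells 2 of the 20 had no read, and log2 differences from such values depend on the pseudocount. With age in the IL27RA- fraction the same list had a median of -1.35, and Ncaph and Uhrf1 fell by 7.07 and 6.43 on the log2 scale. With age in the IL27RA+ fraction 19 of the 20 stood higher in old cells, with a median of 0.79, and none was called. Ncaph was also called in both averages, and Birc5, a mitotic survivin gene, in the sort average. The averages had Ncaph higher in IL27RA+ cells and lower with age, the latter beside its fall in the IL27RA- fraction. The 76 mitoribosomal genes had medians of 0.07 for the sort in old cells and 0.23 for age in IL27RA- cells. These 2 comparisons share the old IL27RA- libraries. Of 8 macrophage markers, all were higher in IL27RA+ than in IL27RA- cells averaged over both ages, with Vcam1, C1qb and C1qc called. Their summed normalized counts were 855 to 5143 in old IL27RA+, 256 to 1120 in old IL27RA-, 2741 to 4824 in young IL27RA+ and 443 to 578 in young IL27RA- libraries. All 8 had reads in both IL27RA+ groups. Summed over the 3 libraries of a group, Adgre1, which defines macrophages, had 81 and 113 reads in old and in young IL27RA+ cells. It had 0 in both IL27RA- groups, and in old cells the libraries of the 2 fractions still overlapped. Csf1r, of the same list, differed by only 0.06 ± 0.57 between the fractions of old cells. What part macrophages had in the mitoribosomal values was not tested.

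Of the other marker lists, Klrb1c, of natural killer cells, and Prtn3, a granule protease gene, rose with age on average (3.53 ± 0.62 and 1.22 ± 0.15, limma adjusted p = 0.00807 and 0.000439). Prtn3 did not stand for its list of neutrophil and myeloid genes. There, 2 of the 5 genes tested were positive with age and 3 negative, with a median of -0.16. In the IL27RA+ fraction Mpo and Cxcl12 fell with age by 5.94 and 7.16 on the log2 scale. Summed over each group, Mpo had 181 reads in young and 0 in old IL27RA+ cells, and Cxcl12 had 640 and 1. Both had 0 reads in the 2 IL27RA- groups. The size of these falls thus depends on the pseudocount. No erythroid, megakaryocyte, B cell or stem cell marker analysed was called in any comparison.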

How the data were processed

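The submitters' processing notes name FastQC 0.11.5, TopHat2 2.1.1, HTSeq and DESeq2 without saying what each did. An alignment build was not given in the sources used here. The authors deposited log2 values per gene and library. Judged by the values, a pseudocount of 1 was added to each size-factor-scaled read count before the log2 was taken, and whole reads could be recovered for 100% of values (tolerance 0.001 reads). In 1 damaged line (the gene Mtbp) the deposited entry of 1 library was no log2 value but an unknown score, and the line was left out with 15 repeats of the 20473 lines. Expression was measured in 12 libraries of 11669083 to 24153167 reads in genes.

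The test was limma 3.58.1 (R 4.3.3), trend option on, over all 12 libraries with 1 mean per group, 8 residual and 6.58 prior degrees of freedom, on 14803 genes with a linear value of 10 or more in at least 3 libraries, with Benjamini-Hochberg adjustment and a threshold of 0.05. Differences are given as log2 with the moderated standard error, and understate changes of low genes. Counting intervals and floors cover counting error only. Exon lengths came from GENCODE mouse M21, matched by identifier for 19007 genes (92.9%). The fit was tested on simulated data, where it missed most 2-fold changes in both averages, so a gene that did not pass is not shown to be unchanged. Figures were drawn with matplotlib 3.10.9. Named are, per comparison and direction, the 3 genes of lowest p, the 5 highest, lowest, steadiest and most variable genes, a few chosen for their known role and, of the other lists every called gene and those with the smallest p. The members and lists were chosen with earlier results of these data known. Alternatives were other filters, pseudocounts, scalings, weights, a voom fit with TMM factors on the recovered reads, the replicate number as a term, and leaving out libraries. A few genes outside the family are not reported here.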

Additional observations from a re-analysis of the deposited data

How the results depend on the processing

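In each of the 7 comparisons the count of mitoribosomal genes called stayed at 0 under each of the 21 to 23 alternative settings run for it (155 recomputed counts, all from limma or voom). The 42 differences of named genes kept their direction and stayed above the threshold, but 19 of them moved by over 1.5 times when 1 library was left out. The smallest adjusted p of any of the 76 genes was 0.0666 to 0.415 over the settings, all from limma or voom. The highest came under the replicate block within age, which was run for the sort comparisons and the interaction only. In those the main limma fit had a smallest adjusted p of 0.377. The median difference of the 76 genes with age in IL27RA- cells was 0.23, and 0.09 to 0.35 when libraries were left out; it moved by more than the spread of library medians within groups (0.13) when young IL27RA- replicate 2 and old IL27RA- replicate 1 were left out together (0.092). Leaving out libraries gave medians of 0.03 to 0.17 for age in IL27RA+ cells, 0.07 to 0.26 for age on average, 0.02 to 0.20 and -0.04 to 0.15 for the sort in young and in old cells, 0.02 to 0.12 for the sort on average and -0.15 to 0.05 for the interaction. Counts over all genes depended on the setting: with libraries left out they ran from 25 to 271 (99 with all libraries) for age in IL27RA- cells, 4 to 96 (63) for age in IL27RA+ cells, 140 to 431 (274) for age on average, 0 to 50 (3) for the sort in young cells, 1 to 24 (3) in old cells, 6 to 96 (28) on average and 0 to 5 (0) for the interaction. Under the other settings the same counts ran from 0 to 104, 13 to 138, 182 to 348, 0 to 8, 0 to 86, 3 to 45 and 0 to 0.

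Deviations of same-numbered libraries of different groups correlated with r of -0.05 to 0.11, above 0.1 in 1 of 18 pairs. Only 6 of these pairs joined libraries of the same age, which could share animals. Their r was 0.004 to 0.11, above 0.1 in 1 pair. Correlations this weak cannot decide whether the fractions of an age came from the same mice. With the replicate block the count of mitoribosomal genes called was 0 in every comparison. Fits with edgeR and DESeq2 on the recovered reads were planned and not run, and voom was the count-based fit run on those reads. With 3 libraries of 50 cells a group, 95% intervals of a difference within 1 fraction had a median half-width of 0.86 log2 units over the 76 genes (1.27 over all genes), so smaller differences were often not detectable.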
